A study of Mus musculus with 10 samples.

Results

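The ionotropic and metabotropic glutamate receptors, the GABA-A and GABA rho receptors and the glycine receptors were followed here at the transcript level in the mouse retina, in 39 subunit genes of 19505 genes measured. Members were taken by gene symbol alone: the *Gria*, *Grik*, *Grin* and *Grm* genes of glutamate receptors, the *Gabra*, *Gabrb*, *Gabrg*, *Gabrd* and *Gabrr* genes of GABA receptors, and the *Glra* and *Glrb* genes of glycine receptors. The rule itself used no measured value, but members were chosen with earlier results of these data known. Each of the 39 was represented by 1 probe cluster, the brightest where a symbol had several, and none was removed for a low level. They comprise 21 glutamate receptor genes (4 AMPA, 5 kainate, 6 NMDA and 6 metabotropic), 13 GABA receptor genes (10 GABA-A and 3 GABA rho) and 5 glycine receptor genes. Of the other subunits of these families, *Gabre*, *Gabrp* and *Gabrq* were used only for comparison, and the rest were not analysed here.

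The arrays measured total retinal RNA in 5 groups of 2 mice, with 1 array per mouse. Wild-type mice were either unexposed or exposed to 'high light' (15000 lux for 60 min). CLN3-deficient mice carry the Cln3 delta ex7/8 allele, a knock-in model of juvenile neuronal ceroid lipofuscinosis, a lysosomal storage disease with early vision loss. They were unexposed, exposed to light and injected with NaCl solution (vehicle), or exposed to light and injected with minocycline (45 mg/kg, an antibiotic that dampens microglia). For CLN3-deficient mice the methods name 'low light' (10000 lux for 30 min), whereas the labels of these arrays give no dose. All exposed mice were dark-adapted for 16 h and their pupils dilated. Per the methods, all mice had the leucine form of *Rpe65*, which makes the retina sensitive to light, were crossed back to C57BL/6J, and the wild-type mice were littermates, whereas the labels give Balb/c as the strain of the wild-type mice. The methods give young adult mice of both sexes for the study as a whole, and the labels give neither the age nor the interval from light to dissection. Injection and, as the methods give it, light dose differed between the genotypes' light comparisons, so neither can be told apart from genotype there. The labels name no injection for the unexposed CLN3-deficient mice, so light and injection cannot be told apart in the light comparisons of that genotype.

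Glutamate carries signals from photoreceptors to bipolar cells and from bipolar cells to amacrine and ganglion cells. ON bipolar cells read it through the metabotropic receptor mGluR6, which closes the TRPM1 channel in the dark, while OFF bipolar, horizontal, amacrine and ganglion cells read it through AMPA, kainate and, in the inner retina, NMDA receptors, which are cation channels of 4 subunits. Horizontal and amacrine cells release GABA or glycine, which open chloride channels: GABA-A receptors built of alpha, beta and gamma or delta subunits, GABA rho receptors, which are prominent on bipolar cell terminals, and glycine receptors of alpha and beta subunits. In bulk retinal RNA, a lower level from fewer cells of a type and one from less RNA per cell cannot be told apart.

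Promoters are shown for the members with a RefSeq promoter entry (GRCm38.p6) with the largest light effects averaged over the genotypes, a pair that rose and a pair that fell. A promoter was given for 29 of the 39 members (34 promoters), and none was given for *Grin2b* or *Glra1*. Each sequence holds 300 bases on the gene's strand, 250 before and 50 from the annotated start, and capitals mark GC boxes (GGGCGG, searched on both strands). *Grik5* lies at chr7:25072320-25072619 on the minus strand and *Grik2* at chr10:49788705-49789004 on the minus strand. *Glrb* lies at chr3:80913611-80913910 on the minus strand and *Gabrg1* at chr5:70842568-70842867 on the minus strand.
Grik5: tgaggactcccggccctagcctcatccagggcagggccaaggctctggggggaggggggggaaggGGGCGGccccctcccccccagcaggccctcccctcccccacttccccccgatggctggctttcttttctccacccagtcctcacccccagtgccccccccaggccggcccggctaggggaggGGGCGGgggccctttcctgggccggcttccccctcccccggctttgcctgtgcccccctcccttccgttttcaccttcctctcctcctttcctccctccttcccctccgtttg
Grik2: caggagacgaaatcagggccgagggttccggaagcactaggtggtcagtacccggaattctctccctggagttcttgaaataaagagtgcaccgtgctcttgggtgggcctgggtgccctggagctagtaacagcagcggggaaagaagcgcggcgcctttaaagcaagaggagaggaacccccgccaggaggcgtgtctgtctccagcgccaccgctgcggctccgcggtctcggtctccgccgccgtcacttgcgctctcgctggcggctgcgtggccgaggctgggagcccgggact
Glrb: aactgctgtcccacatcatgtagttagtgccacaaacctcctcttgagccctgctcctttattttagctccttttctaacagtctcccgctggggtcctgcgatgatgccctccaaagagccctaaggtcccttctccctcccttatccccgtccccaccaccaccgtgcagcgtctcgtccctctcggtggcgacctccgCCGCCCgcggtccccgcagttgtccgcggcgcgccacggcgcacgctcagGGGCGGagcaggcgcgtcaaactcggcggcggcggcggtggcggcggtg
Gabrg1: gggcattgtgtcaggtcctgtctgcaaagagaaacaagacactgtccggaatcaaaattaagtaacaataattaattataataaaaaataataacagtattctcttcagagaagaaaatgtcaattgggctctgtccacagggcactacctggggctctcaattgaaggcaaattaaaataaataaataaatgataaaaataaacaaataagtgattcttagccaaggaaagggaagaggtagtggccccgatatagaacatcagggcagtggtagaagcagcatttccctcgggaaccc
The direction of the light response did not sort these promoters by base composition. Of the pair that rose, *Grik5* had 10 CpG dinucleotides and 2 GC boxes and *Grik2* had 26 CpG and 0 GC boxes. Of the pair that fell, *Glrb* had 30 CpG and 2 GC boxes and *Gabrg1* had 3 CpG and 0 GC boxes. A GC box was present in 16 of the 34 member promoters, against 35.7% of 32851 promoters, and the median CpG count was 10.5 against 7. The core site of the photoreceptor factor CRX (TAATCC, both strands) was found in 2 of the 34, against 7.1% of all promoters. These matches are descriptions of the letters in the window only.

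Some arrays stood apart, and this bears on the comparisons below. The labels name no sex, and transcripts of the Y chromosome were present on both arrays of unexposed wild-type and of vehicle-injected CLN3-deficient mice and on minocycline replicate 1. They were absent from both arrays of light-exposed wild-type and of unexposed CLN3-deficient mice and from minocycline replicate 2. Sex thus ran in opposite ways in the light comparisons of the genotypes and was balanced when both were averaged. The mean of 9 skeletal muscle genes was 8.82 on CLN3-deficient unexposed replicate 1 and 5.48 to 6.33 on the other arrays, and the mean of 10 retinal pigment epithelium genes was 11.6 on minocycline replicate 2 and 7.40 to 10.02 on the others. The mean of 10 lens genes was 6.93 and 7.34 on wild-type arrays without light and 5.60 and 5.53 with light, where 4 of them were called lower, and in CLN3-deficient mice it was 5.64 and 5.26 unexposed, 7.22 and 5.92 with vehicle, and 7.84 and 5.62 with minocycline. The parts of dissection and sex in the results were not tested beyond the alternatives given with them. Replicate arrays correlated at 0.9886 to 0.9944 across clusters. Unexposed wild-type replicate 2 was nevertheless higher than replicate 1 by a median of 0.32 over the members. The largest difference was 1.22, and the medians of the other groups were −0.18 to 0.08. On this pair the mean of 11 microglial genes was 6.08 and 7.74, and that of 8 Müller glia genes 13.18 and 14.3. The minocycline pair also differed in the microglial mean, at 7.91 and 6.36. Levels are deposited log2 values of separate probes, so they are compared between groups for a gene and not between genes.

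Light was followed by higher transcripts of the kainate subunits GluK5 and GluK2, the NMDA subunit GluN2B, the glycine receptor alpha1 subunit and mGluR6, and by lower glycine receptor beta and GABA-A gamma1 and alpha3 transcripts in both genotypes. CLN3-deficient retinas showed 5 rises and 3 falls among the 39 members (limma, Benjamini-Hochberg adjusted p under 0.05 over 19505 genes), against 6.57% of all genes that rose and 11% that fell. In wild-type retinas 9 members rose and 6 fell, against 10.5% and 15.6% of all genes. The 5 that rose in both were *Grik5*, *Grin2b*, *Grik2*, *Glra1* and *Grm6*, and the 3 that fell in both were *Glrb*, *Gabrg1* and *Gabra3*. These comparisons share no arrays: all 8 members called in CLN3-deficient retinas were called in wild-type retinas in the same direction (8 of 15), and 0 were called in opposite directions. Of the 39 light effects 31 had the same sign in both genotypes. How often calls or signs were shared over all genes was not counted, so these counts are not shown to be particular to the receptors.

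By family, most of the rises were in glutamate receptor genes. Of these 21 genes, CLN3-deficient retinas showed 4 rises and 0 falls and wild-type retinas 6 rises and 1 fall. Their median log2 change was 0.23 in CLN3-deficient retinas, with 16 of 21 above 0, and 0.51 in wild-type retinas, with 17 of 21 above 0. Over all genes the medians were 0.005 and 0.025. The 18 GABA and glycine receptor genes gave 1 rise and 3 falls with CLN3 deficiency (median −0.21) and 3 rises and 5 falls in the wild type (median −0.20). With light averaged over the genotypes, a contrast added after the data were seen, 9 members rose and 7 fell, against 15.9% and 21.7% of all genes. Quantile normalization changed the split of the calls from 9 rises and 6 falls to 12 and 2 in wild-type retinas, and from 9 and 7 to 13 and 5 in the average.

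**Figure D1:**
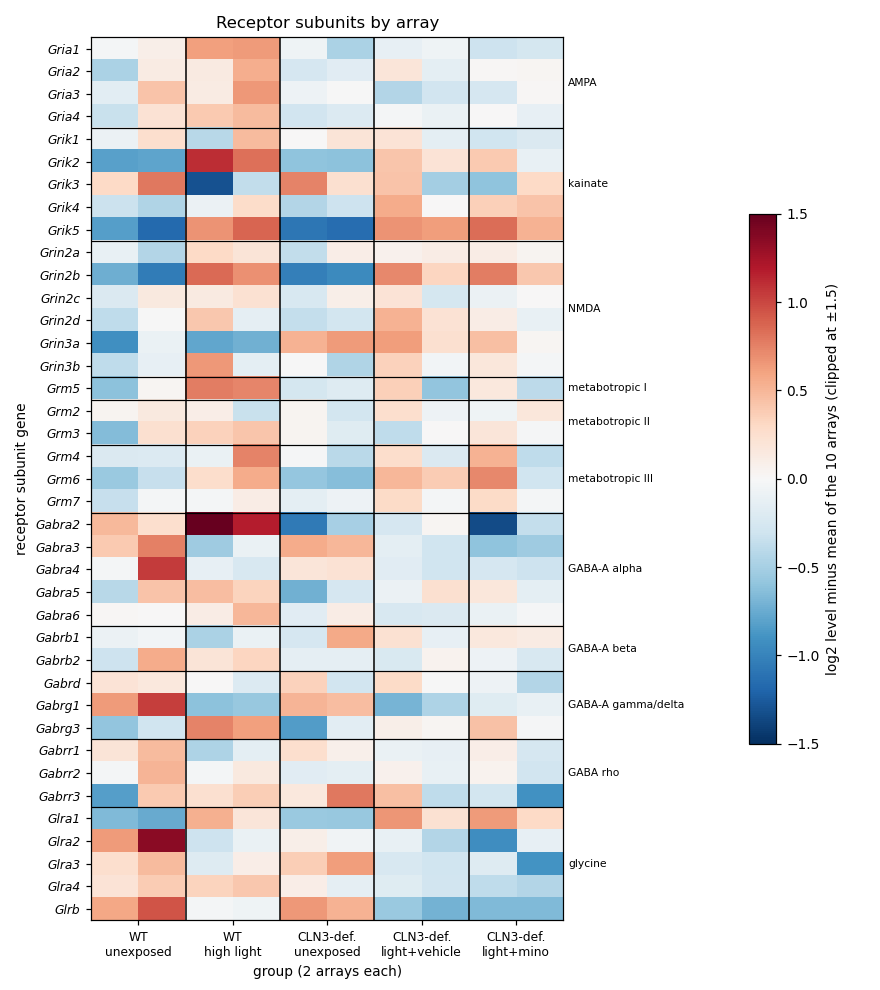
Log2 level of each of the 39 receptor subunit genes (rows, by class) on each of the 10 arrays (columns, 2 per group) as the difference from the gene's mean over the arrays, with the color scale clipped at ±1.5. *Grik5*, *Grin2b*, *Grik2* and *Glra1* are lower on the 4 unexposed arrays than on the 6 light-exposed arrays, *Glrb* and *Gabrg1* are higher, and *Gabra2* is lower on all CLN3-deficient than on all wild-type arrays.

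**Figure D2:**
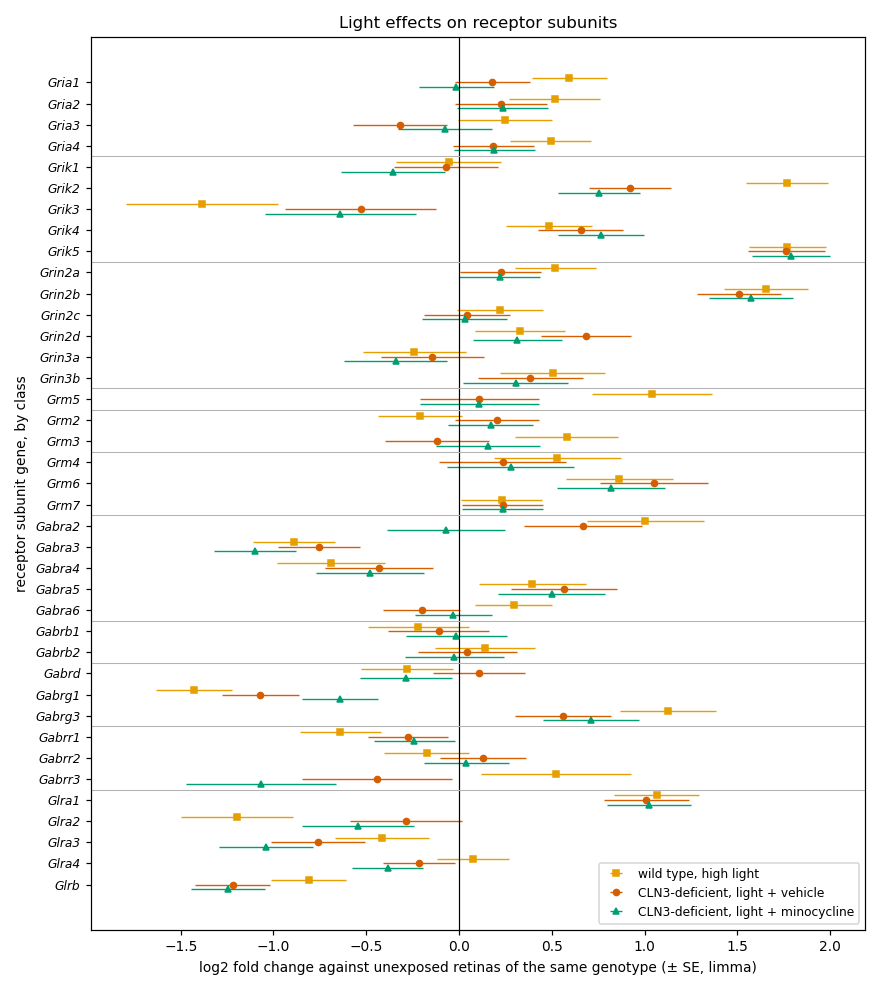
Log2 fold change after light (x axis, with the standard error from limma) for each receptor subunit gene (y axis, by class) in wild-type retinas (squares), CLN3-deficient retinas with vehicle (circles) and CLN3-deficient retinas with minocycline (triangles), each against unexposed retinas of the same genotype; the circles and triangles share their unexposed arrays. *Grik5* lies between 1.76 and 1.79 in all 3 comparisons, and *Grik2* lies at 1.77 in wild-type and 0.92 in vehicle-injected CLN3-deficient retinas.

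Kainate receptor genes gave 2 rises in each genotype, *Grik5* and *Grik2*. *Grik5* encodes GluK5, a high-affinity subunit that needs a GluK1 to GluK3 partner to form a channel. Its log2 level was 11.40 and 11.07 on the unexposed wild-type arrays and 12.91 and 13.10 after light. The CLN3-deficient values were 11.15 and 11.09 unexposed, 12.91 and 12.86 with light and vehicle, and 13.07 and 12.75 with light and minocycline. All 6 light-exposed arrays lay above all 4 unexposed arrays. The rise was 3.41-fold in wild-type (log2 1.77, SE 0.21, adjusted p = 0.000848) and 3.4-fold in CLN3-deficient retinas (log2 1.76, SE 0.21, adjusted p = 0.0013; limma). Both calls held when any single array was left out.

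*Grik2* encodes GluK2, one of the subunits that can form a channel alone. It was 9.82 and 9.85 unexposed and 11.74 and 11.47 after light on the wild-type arrays. On the CLN3-deficient arrays it was 10.03 and 10.02 unexposed, 11.05 and 10.84 with vehicle, and 11.03 and 10.53 with minocycline. The unexposed groups lay close together, and the wild-type light arrays lay above every CLN3-deficient light array. *Grik2* rose 3.41-fold in wild-type (log2 1.77, SE 0.22, adjusted p = 0.000902) and 1.89-fold in CLN3-deficient retinas (log2 0.92, SE 0.22, adjusted p = 0.0161; limma). The latter was lost whichever array of its comparison was left out (adjusted p 0.0566 to 0.114, limma).

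The remaining kainate genes differed in direction. *Grik3*, which encodes the low-affinity subunit GluK3, was 7.27 and 7.76 unexposed and 5.66 and 6.60 after light in wild-type retinas, a fall of 1.39 on the log2 scale (SE 0.41, adjusted p = 0.0287, limma) that was kept in 1 of the 4 single-array omissions; without light replicate 1 it was −0.92. CLN3-deficient retinas had *Grik3* at 7.71 and 7.21 unexposed and 7.40 and 6.46 with vehicle, and the groups overlapped (log2 −0.53, adjusted p = 0.416, limma). *Grik4*, which encodes GluK4, the second high-affinity subunit, was 6.53 and 6.40 against 6.77 and 7.13 in wild-type retinas. It was 6.42 and 6.54 against 7.41 and 6.86 in CLN3-deficient retinas, and 7.21 and 7.28 with minocycline. Every light-exposed array of *Grik4* lay above every unexposed one. It passed only as an average over the genotypes (log2 0.57, SE 0.16, adjusted p = 0.0177, limma), a call that 4 of the 8 single-array omissions kept. *Grik1*, which encodes the GluK1 subunit of OFF bipolar cells, stayed between 12.43 and 13.32 on all arrays, with log2 changes of −0.06 in wild-type and −0.07 in CLN3-deficient retinas.

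Among the NMDA receptor genes, *Grin2b* moved most. It encodes GluN2B, a glutamate-binding subunit of NMDA receptors that sets slow channel closure. The wild-type levels were 8.91 and 8.60 unexposed and 10.49 and 10.33 after light. The CLN3-deficient levels were 8.62 and 8.69 unexposed, 10.36 and 9.97 with vehicle, and 10.41 and 10.05 with minocycline. The 6 light-exposed arrays and the 4 unexposed arrays were separated by more than 1 log2 unit. *Grin2b* rose 3.15-fold in wild-type (log2 1.66, SE 0.22, adjusted p = 0.00125) and 2.85-fold in CLN3-deficient retinas (log2 1.51, SE 0.22, adjusted p = 0.00232; limma), and both calls held without any single array.

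The other NMDA genes changed less. *Grin2d* encodes GluN2D, a subunit of slowly deactivating receptors, and was 6.60 and 6.98 unexposed and 7.39 and 6.85 after light in wild-type retinas, where the groups overlapped. CLN3-deficient mice had 6.62 and 6.71 unexposed and 7.50 and 7.20 with vehicle (log2 0.69, adjusted p = 0.0732, limma). Averaged over the genotypes *Grin2d* passed (log2 0.51, SE 0.17, adjusted p = 0.0356, limma), a call kept in 3 of the 8 single-array omissions. *Grin2a*, which encodes GluN2A, was 9.24 and 8.92 against 9.65 and 9.55 in wild-type retinas (log2 0.52, adjusted p = 0.0993) and 8.98 and 9.45 against 9.42 and 9.46 in CLN3-deficient retinas (log2 0.23, adjusted p = 0.532; limma). *Grin2c*, *Grin3a* and *Grin3b* did not pass in any light comparison, with changes of −0.34 to 0.51.

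Of the 4 AMPA receptor genes, 1 passed in wild-type and 0 in CLN3-deficient retinas. *Gria1*, which encodes GluA1, was 11.67 and 11.79 unexposed and 12.31 and 12.34 after light in wild-type retinas. It was 11.63 and 11.22 unexposed, 11.58 and 11.63 with vehicle, and 11.39 and 11.43 with minocycline in CLN3-deficient retinas. The wild-type rise (log2 0.59, SE 0.20, adjusted p = 0.0497, limma) was lost without any of its 4 arrays (adjusted p 0.108 to 0.167), and in CLN3-deficient retinas the groups overlapped (log2 0.18, adjusted p = 0.599, limma). *Gria2*, whose GluA2 subunit makes the channel impermeable to calcium after RNA editing, *Gria3* and *Gria4* had changes of 0.25 to 0.51 in wild-type and of −0.32 to 0.23 in CLN3-deficient retinas, and none passed.

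The mGluR6 gene *Grm6* rose in both genotypes. It is the glutamate sensor of ON bipolar cells and is largely restricted to them in the retina. Its level was 11.49 and 11.71 unexposed and 12.32 and 12.61 after light in wild-type retinas. On the CLN3-deficient arrays it was 11.47 and 11.41 unexposed, 12.55 and 12.43 with vehicle, and 12.77 and 11.75 with minocycline. Minocycline replicate 2, the array with the high pigment epithelium values, lay only just above the unexposed arrays. *Grm6* rose 1.82-fold in wild-type (log2 0.86, SE 0.29, adjusted p = 0.0478) and 2.07-fold in CLN3-deficient retinas (log2 1.05, SE 0.29, adjusted p = 0.0297; limma). Each of these calls was lost when any of its arrays was left out, and that of the average (log2 0.96, SE 0.21, adjusted p = 0.00401, limma) held without any single array. The CLN3-deficient value dropped to 0.03 with Y-linked transcripts as a covariate. That covariate is set by the difference between the minocycline arrays alone, here 12.77 and 11.75. It cannot separate sex from what else differed between them.

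The other metabotropic receptors gave 1 call. *Grm5*, which encodes the calcium-mobilizing receptor mGluR5, was 8.19 and 8.83 unexposed and 9.57 and 9.53 after light in wild-type retinas (log2 1.04, SE 0.32, adjusted p = 0.0345, limma). Readings for CLN3-deficient mice were 8.54 and 8.61 unexposed, 9.16 and 8.21 with vehicle, and 8.96 and 8.41 with minocycline, so the light-exposed arrays spanned the unexposed ones (log2 0.11, adjusted p = 0.858, limma). *Grm2*, *Grm3*, *Grm4* and *Grm7* encode presynaptic or modulatory receptors coupled to inhibitory G proteins. None of these 4 passed, with changes of −0.21 to 0.58 in wild-type and −0.12 to 0.24 in CLN3-deficient retinas.

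GABA-A receptor genes moved in both directions within a class. *Gabrg1* encodes the gamma1 subunit, an uncommon partner in GABA-A receptors. It was 8.90 and 9.29 unexposed and 7.64 and 7.69 after light in wild-type retinas. The CLN3-deficient values were 8.77 and 8.72 unexposed, 7.56 and 7.79 with vehicle, and 8.07 and 8.14 with minocycline. All 6 light-exposed arrays lay below all 4 unexposed arrays, the minocycline arrays nearest to them. *Gabrg1* fell 2.69-fold in wild-type (log2 −1.43, SE 0.21, adjusted p = 0.00146) and 2.1-fold in CLN3-deficient retinas (log2 −1.07, SE 0.21, adjusted p = 0.00617; limma). Its paralog *Gabrg3* went the other way: 9.59 and 9.89 unexposed and 10.93 and 10.80 after light in wild-type retinas (log2 1.12, SE 0.26, adjusted p = 0.00979, limma). CLN3-deficient retinas had *Gabrg3* at 9.34 and 10.02 unexposed and 10.27 and 10.21 with vehicle (log2 0.56, adjusted p = 0.163), and its average over the genotypes passed (log2 0.84, SE 0.18, adjusted p = 0.00426; limma).

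The alpha subunits, which decide where and with what affinity GABA-A receptors act, split in the same way. *Gabra3* was 10.99 and 11.36 unexposed and 10.07 and 10.50 after light in wild-type retinas. It was 11.16 and 11.10 unexposed, 10.45 and 10.30 with vehicle, and 10.03 ± 0.04 (mean ± SD, n = 2) with minocycline in CLN3-deficient retinas. The light-exposed and unexposed arrays did not overlap. *Gabra3* fell 1.85-fold in wild-type (log2 −0.89, SE 0.22, adjusted p = 0.0133) and 1.69-fold in CLN3-deficient retinas (log2 −0.76, SE 0.22, adjusted p = 0.0355; limma), and both calls were lost after quantile normalization, whereas that of the average held (adjusted p = 0.0336, limma). *Gabra2* was 10.93 and 10.70 unexposed and 12.02 and 11.62 after light in wild-type retinas (log2 1.00, SE 0.32, adjusted p = 0.0377, limma). It was 9.38 and 9.94 unexposed and 10.19 and 10.47 with vehicle in CLN3-deficient retinas (log2 0.67, adjusted p = 0.174, limma). With Y-linked transcripts as a covariate its wild-type change was 0.03. That covariate is set by the CLN3-deficient minocycline arrays alone, here 9.10 and 10.08, and cannot separate sex from their other differences.

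*Gabra4*, which encodes a subunit of extrasynaptic receptors, was lower on every light-exposed array (7.01 to 7.20) than on any unexposed one (7.29 to 8.37) but did not pass, with changes of −0.69 in wild-type and −0.43 in CLN3-deficient retinas. *Gabra5*, *Gabra6*, *Gabrb1*, *Gabrb2* and *Gabrd* did not pass in any comparison, and their light effects lay between −0.28 and 0.56. Several members are neighbors with no protein-coding gene between them (RefSeq gene order, GRCm38.p6), and the pairs did not share calls. *Gabrg1*, which fell, lies beside *Gabra2*, which rose in wild-type retinas. *Glrb*, which fell, lies beside *Gria2*, which did not pass. *Gabrg3*, which rose in wild-type retinas, lies beside *Gabra5*, which did not pass. With 1 coding gene between them, *Glra1* and *Gria1* both rose in wild-type retinas, whereas *Gabra2* and *Gabra4* shared no call.

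The GABA rho subunits form channels that bipolar cells use at their terminals. *Gabrr1*, which encodes rho1, was 14.17 and 14.46 unexposed and 13.52 and 13.83 after light in wild-type retinas (log2 −0.64, SE 0.22, adjusted p = 0.0494, limma). CLN3-deficient mice had 14.23 and 14.06 unexposed, 13.88 and 13.86 with vehicle, and 14.08 and 13.73 with minocycline (vehicle against unexposed log2 −0.27, adjusted p = 0.429, limma). The wild-type call sat at the threshold and was lost after quantile normalization. *Gabrr2* and *Gabrr3* did not pass, with changes of −0.18 and 0.52 in wild-type and 0.13 and −0.44 in CLN3-deficient retinas.

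Glycine receptor genes diverged: the alpha1 gene rose and the beta gene fell in both genotypes. *Glra1* encodes alpha1, a ligand-binding subunit of the fast glycine receptors that AII amacrine cells act on. It was 11.30 and 11.20 unexposed and 12.49 and 12.14 after light in wild-type retinas. On the CLN3-deficient arrays it was 11.40 and 11.39 unexposed, 12.62 and 12.19 with vehicle, and 12.59 and 12.25 with minocycline. The light-exposed arrays all lay above the unexposed arrays. *Glra1* rose 2.09-fold in wild-type (log2 1.06, SE 0.23, adjusted p = 0.00706) and 2.01-fold in CLN3-deficient retinas (log2 1.01, SE 0.23, adjusted p = 0.0122; limma).

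*Glrb* encodes the beta subunit, which binds gephyrin and anchors glycine receptors at synapses. Its level was 13.83 and 14.20 unexposed and 13.22 and 13.19 after light in wild-type retinas. Readings for CLN3-deficient mice were 13.90 and 13.77 unexposed, 12.69 and 12.54 with vehicle, and 12.59 on both arrays with minocycline. The light-exposed CLN3-deficient arrays lay below the light-exposed wild-type arrays, and both below all unexposed arrays. *Glrb* fell 1.75-fold in wild-type (log2 −0.81, SE 0.20, adjusted p = 0.0138) and 2.33-fold in CLN3-deficient retinas (log2 −1.22, SE 0.20, adjusted p = 0.00327; limma). The CLN3-deficient call held without any single array, and the wild-type call was lost after quantile normalization (log2 −0.58).

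The remaining alpha genes were lower after light or level. *Glra2*, which encodes alpha2, a subunit prominent in developing neurons and in amacrine cells, was 10.58 and 11.30 unexposed and 9.64 and 9.85 after light in wild-type retinas (log2 −1.20, SE 0.30, adjusted p = 0.015, limma), a call kept in 2 of 4 single-array omissions and lost after quantile normalization. CLN3-deficient retinas had *Glra2* at already 10.03 and 9.89 unexposed and was 9.84 and 9.51 with vehicle (log2 −0.29, adjusted p = 0.574, limma). *Glra3*, which encodes alpha3, was 12.48 and 12.70 against 12.03 and 12.32 in wild-type retinas. It was 12.59 and 12.85 unexposed, 11.99 and 11.93 with vehicle, and 12.03 and 11.33 with minocycline in CLN3-deficient retinas. Its calls were limited to the average over the genotypes (log2 −0.59, SE 0.18, adjusted p = 0.0227) and to minocycline-treated light-exposed against unexposed retinas (log2 −1.04, SE 0.25, adjusted p = 0.0249; limma). The former was kept in 3 of 8 single-array omissions and lost after quantile normalization (adjusted p = 0.115, limma), and the latter was kept in 1 of 4. *Glra4* did not pass, with changes of 0.08 and −0.21.

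**Figure D3:**
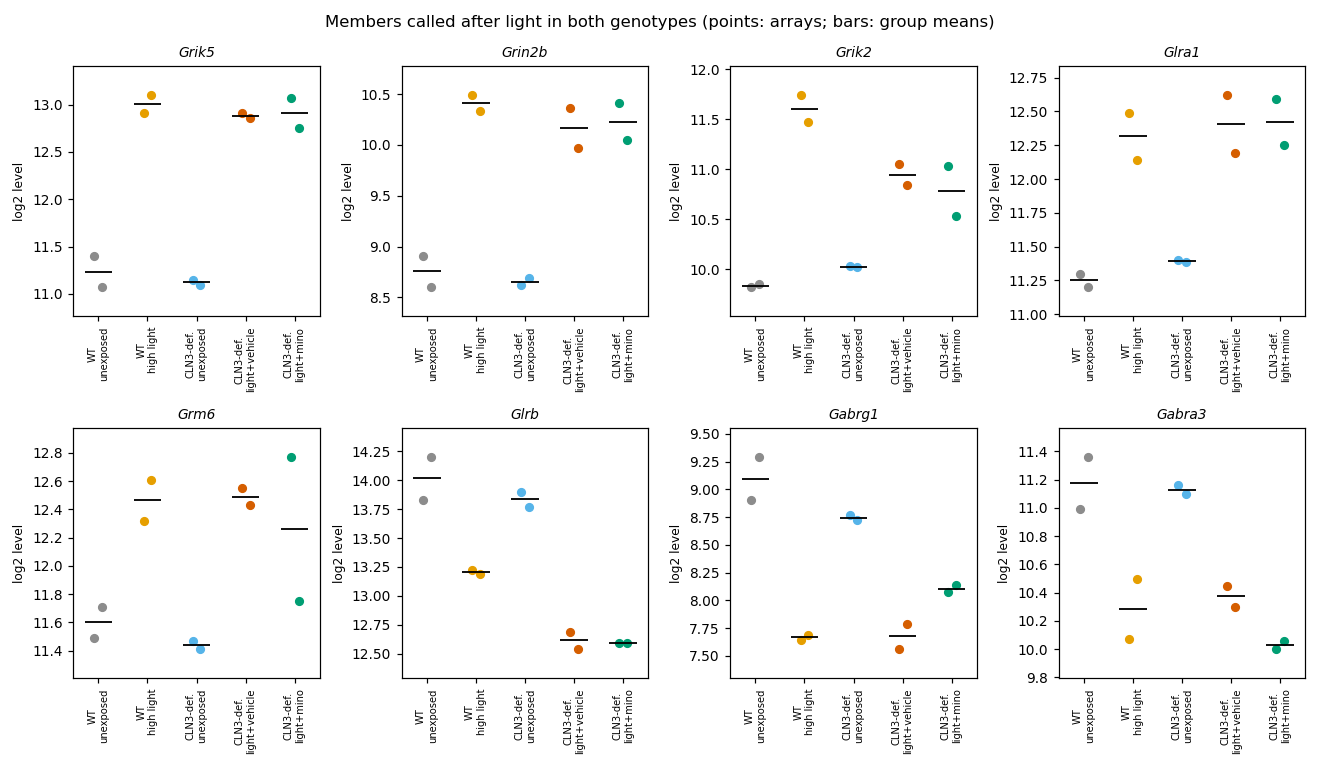
Log2 level (y axis, deposited values; each panel has its own scale) of the 8 receptor subunit genes that passed after light in both genotypes, by group (x axis, 2 arrays each as points, horizontal bars for group means). In every panel all light-exposed arrays lie on one side of all unexposed arrays, with *Grm6* on minocycline replicate 2 the closest at 11.75 against 11.71.

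Single arrays carried many of the calls within a genotype. Of the 8 calls in CLN3-deficient retinas 3 held when each array was left out in turn (*Grik5*, *Grin2b* and *Glrb*), and of the 15 in wild-type retinas 4 did (*Grik5*, *Grik2*, *Grin2b* and *Gabrg1*). Each other call was lost without at least 1 array. Averaged over the genotypes, 9 of 16 calls held without any single array, which adds *Glra1*, *Grm6*, *Gabrg3* and *Gabra3*. With Y-linked transcripts as a covariate, 0 of the 8 CLN3-deficient and 6 of the 15 wild-type calls were left. The average kept 9 rises and 7 falls, but there the covariate cancels and cannot change the log2 values, so this was no test of sex. In every comparison, in either genotype, this covariate is set by the minocycline pair alone, the only group in which it varies. It cannot separate sex from other differences between those arrays, of which replicate 2 had the high pigment epithelium values. Under this covariate the CLN3-deficient change of *Grik5* was 1.45 (adjusted p = 0.113), of *Grin2b* 1.15 (0.195) and of *Glrb* −1.22 (0.159; limma).

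Whether the light response differed with genotype was tested as the difference between the light effects, and no member passed. Over all 19505 genes 0 passed (0%), with 1203 higher and 967 lower at an unadjusted p under 0.05. Among the members only *Grik2* reached that level: its light effect was smaller in CLN3-deficient retinas by a log2 difference of −0.85 (95% interval −1.53 to −0.17, adjusted p = 0.348, limma). For *Grik5* the difference was −0.01 (interval −0.65 to 0.64), and for *Glrb* −0.41 (interval −1.03 to 0.21). Members called in wild-type retinas alone were therefore not shown to respond differently. The doses differed as described, and sex ran in opposite ways in these light effects, so it cannot be told apart from their difference. The median standard error of such a difference was 0.35.

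Between the genotypes, no member passed, and a pair of genes stood out by their values. In unexposed retinas 0 members passed, against 0.0461% of all genes (9 genes, limma), and 1 was higher and 2 were lower at an unadjusted p under 0.05 (2.1% and 2.26% of all genes). Y-linked transcripts were present on both unexposed wild-type arrays and absent from both unexposed CLN3-deficient arrays, so sex and genotype cannot be told apart there. With genotype averaged over light, a contrast also added after the data were seen, 0 members passed against 0.0974% of all genes (19 genes), and 1 was higher and 7 lower at an unadjusted p under 0.05 (4.39% and 4.56% of all genes). *Gabra2* was between 9.10 and 10.47 on the 6 CLN3-deficient arrays and between 10.70 and 12.02 on the 4 wild-type arrays, so the genotypes did not overlap with or without light. The averaged difference was 2.5-fold lower in CLN3-deficient retinas (log2 −1.32, SE 0.22, adjusted p = 0.0717, limma).

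*Grin3a* encodes GluN3A, a glycine-binding NMDA subunit that lowers calcium entry. It was 4.90 and 5.72 unexposed and 5.04 and 5.10 after light in wild-type retinas. The CLN3-deficient values were 6.34 and 6.46 unexposed, 6.45 and 6.06 with vehicle, and 6.27 and 5.85 with minocycline. Each CLN3-deficient array exceeded each wild-type array, with an averaged log2 difference of 1.14 (SE 0.20, adjusted p = 0.0739, limma). Apart from 5.72, the wild-type values of *Grin3a* lay near the lower quartile of the arrays (4.76 to 5.15), so this is no measure of the fold. For both genes the call depended on the fit: adjusted p was 0.0096 to 0.383 for *Gabra2* and 0.0229 to 0.47 for *Grin3a* over the alternatives. Without light *Glra2* did not pass (log2 −0.98, SE 0.30, adjusted p = 0.903, limma), and *Gria1* and *Glra4* were lower on every CLN3-deficient than on any wild-type array, with averaged log2 differences of −0.51 and −0.46 that did not pass. The strain label is Balb/c for the wild-type mice and names only the mutation for the CLN3-deficient mice, and the part of strain was not tested.

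**Figure D4:**
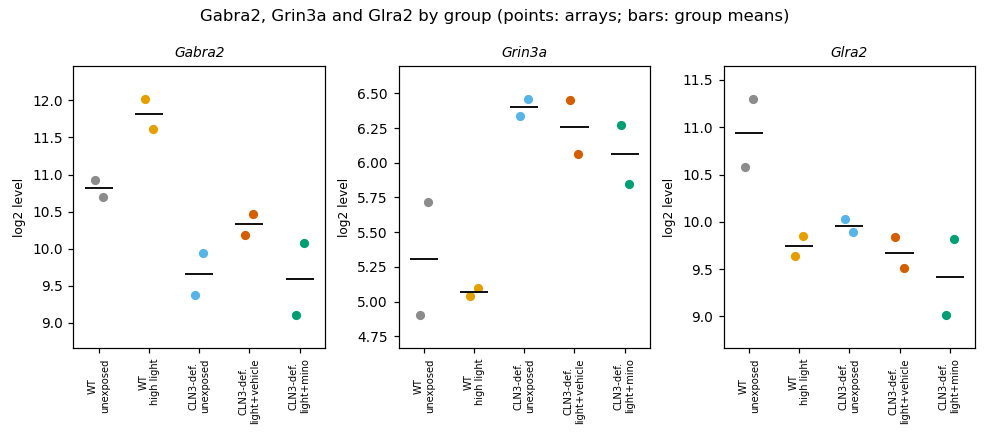
Log2 level (y axis, deposited values; each panel has its own scale) of *Gabra2*, *Grin3a* and *Glra2* by group (x axis, 2 arrays each as points, horizontal bars for group means). All CLN3-deficient arrays lie below the wild-type arrays for *Gabra2* and above them for *Grin3a*, and the wild-type unexposed arrays stand above the rest for *Glra2*.

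Minocycline was compared with vehicle in light-exposed CLN3-deficient retinas, and no receptor subunit gene passed. Over all genes 3 passed (0.0154%). The median change of the members was −0.04, and *Gabra2* was the 1 member with an unadjusted p under 0.05, at 9.10 and 10.08 with minocycline against 10.19 and 10.47 with vehicle (log2 −0.74, 95% interval −1.44 to −0.04, adjusted p = 0.749, limma). *Gabrg1* was 0.43 higher with minocycline (interval −0.02 to 0.88, adjusted p = 0.781, limma). Of the 39 members, 3 were higher and 7 lower with minocycline without overlap of the arrays, *Gabrg1* among the former. The share over all genes was not counted, so this gap shows no effect on *Gabrg1*. The members that moved most with light lay close together: the difference between minocycline and vehicle was 0.03 for *Grik5* (interval −0.43 to 0.48) and −0.03 for *Glrb* (interval −0.47 to 0.42). The 95% intervals of the 39 members reached from −1.51 (*Gabrr3*) to 0.89 (*Grm3*).

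Against unexposed CLN3-deficient retinas, light with minocycline gave 3 members that rose and 3 that fell, against 10.5% of all genes called in either direction. The rises were *Grik5* (log2 1.79), *Grin2b* (1.57) and *Glra1* (1.02), and the falls were *Glrb* (−1.25), *Gabra3* (−1.10) and *Glra3* (−1.04). This comparison shares its unexposed arrays with that of vehicle. With vehicle the same genes, in this order, changed by 1.76, 1.51, 1.01, −1.22, −0.76 and −0.76 on the log2 scale.

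Genes that act with these receptors were counted in the same way. Of 30 measured scaffold and auxiliary subunit genes, CLN3-deficient retinas showed 7 rises and 4 falls and wild-type retinas 4 rises and 3 falls, where 6.57% and 11% of all genes rose and fell in the former and 10.5% and 15.6% in the latter. *Shank1*, a scaffold of the postsynaptic density at glutamate synapses, rose by 1.43 in CLN3-deficient (SE 0.28, adjusted p = 0.00674) and 1.85 in wild-type retinas (SE 0.28, adjusted p = 0.00183; limma). *Shank2* rose by 1.55 and 1.16 (adjusted p = 0.00248 and 0.00583, limma). The gene of gephyrin, *Gphn*, the anchor of glycine and GABA-A receptors, rose in wild-type retinas (log2 0.82, adjusted p = 0.0117, limma) and did not pass in CLN3-deficient retinas (log2 0.35, adjusted p = 0.258, limma). *Nlgn2*, which encodes neuroligin-2, an adhesion protein of inhibitory synapses, rose in CLN3-deficient retinas (log2 1.61, SE 0.22, adjusted p = 0.00175, limma). Its levels there were 11.64 and 11.18 unexposed and 13.03 and 13.02 with vehicle. In wild-type retinas they lay closer together, at 11.96 and 11.64 unexposed and 12.23 and 12.07 after light.

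The transporter and transmitter synthesis genes that passed with vehicle or in the wild type were all lower, and the shares of all genes given above apply to these counts too: of 16, CLN3-deficient retinas showed 0 rises and 3 falls and wild-type retinas 0 rises and 4 falls. The glutamate-to-GABA enzyme gene *Gad1* fell by 1.35 in CLN3-deficient and by 1.02 in wild-type retinas (adjusted p = 0.00567 and 0.014, limma). The vesicular glutamate transporter gene *Slc17a6* of ganglion cells fell by 1.78 and 0.94 (adjusted p = 0.00196 and 0.0189, limma). Of the 15 genes of the mGluR6 cascade other than *Grm6*, 2 rose and 1 fell in each genotype. *Trpm1*, the channel that mGluR6 closes, rose by 1.00 in CLN3-deficient and 1.58 in wild-type retinas (adjusted p = 0.0284 and 0.00302, limma), and *Lrit1*, a photoreceptor synapse protein, fell by 1.49 and 1.79 (adjusted p = 0.00211 and 0.000848, limma). Of 6 further receptor genes (*Gabbr1* and *Gabbr2* of GABA-B receptors, the GABA-A subunit genes *Gabre*, *Gabrp* and *Gabrq*, and *Grid1* of delta glutamate receptors) 0 passed in either genotype (limma), with 1 in each at an unadjusted p under 0.05.

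Cell type markers moved beside these results, to be read against the same shares of all genes. Rod, bipolar, amacrine and ganglion cell lists had means above the upper quartile of the array (10.16 to 10.53) on all arrays, whereas the horizontal cell list had means of 7.66 to 8.05. Rod markers fell (0 rose and 6 of 13 fell in CLN3-deficient retinas, 9 of 13 in wild-type), and their mean log2 level ran from 16.51 to 17.06 on unexposed and from 15.71 to 16.44 on light-exposed arrays. Ganglion cell markers fell in 6 and 8 of 14, with means of 11.20 to 11.62 unexposed and 10.75 to 10.95 after light. Amacrine markers fell in 2 and 4 of 13, with means of 11.77 to 12.21 and 11.43 to 11.71. Of 9 bipolar markers 1 rose and 1 fell in CLN3-deficient and 1 rose and 2 fell in wild-type retinas, with means of 13.18 to 13.42 unexposed and 13.04 to 13.22 after light. Of 11 microglial markers 5 rose in CLN3-deficient and 1 in wild-type retinas, with means of 6.08 to 7.74 unexposed and 6.36 to 8.36 after light. The part of these cell types in the receptor changes was not tested.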

How the data were processed

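The values, deposited on a log2 scale for each transcript cluster, came from Affymetrix Expression Console, run by the authors. Version and normalization method: not given in the sources used. In addition, the methods name another array type than the platform of the deposited values. Of 22206 clusters 19572 carried 1 gene symbol, 0 carried several and 2634 were not listed in the platform's annotation; where a symbol had several clusters the brightest was used, which left 19505 genes. No low-value filter and no further normalization were applied. Differences were tested with limma 3.58.1 in R 4.3.3 (lmFit and eBayes) on a fit with a mean for each of the 5 groups and a shared spread, with Benjamini-Hochberg adjustment over all genes and a threshold of 0.05. The fit was tested on simulated data. With 2 arrays per group, the number of arrays limits the precision: members had a median standard error of 0.25 for light. The rule for named genes took members called in any comparison, the brightest member and the largest light effect of each receptor class, and up to 4 genes per list with the smallest p in either light comparison taken on its own; other members were named after their values were seen. Members and lists were chosen with earlier results of these data known. Alternatives were quantile normalization, median centering, leaving out the 30% dimmest genes, a fit restricted to the groups compared, eBayes with trend and robust, every cluster in place of every gene, the methods' t-test, the study's threshold (a log2 change of at least 2), Y-linked transcripts as a covariate, and leaving out each array. The t-test was adjusted over all genes in the same way, which the methods do not name.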

Additional observations from a re-analysis of the deposited data

Results flagged for a closer look

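*Gabra6*, the alpha6 subunit gene best known from cerebellar granule cells, lay higher after light in wild-type and lower in CLN3-deficient retinas: it was 3.33 and 3.32 unexposed and 3.43 and 3.81 after light in wild-type retinas, and 3.15 and 3.43 unexposed and 3.08 and 3.10 with vehicle in CLN3-deficient retinas, without overlap between light-exposed and unexposed arrays in either. The difference between the light effects was −0.495 on the log2 scale (SE 0.29, adjusted p = 0.569, limma), which did not pass. All these values lay below the lower quartile of every array (4.76 to 5.15).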

How the results depend on the processing

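No called change of a member reversed its direction (0 cases). The methods' t-test was run here with Benjamini-Hochberg adjustment over all genes, which the methods do not name, so it is not the study's own criterion. Under it the light calls went to 0 in each, from 5 rises and 3 falls with CLN3 deficiency and from 9 and 6 in the wild type. Those of light with minocycline went from 6 to 0, and those of the average from 9 and 7 to 5 and 4. The study's threshold with limma left 0 members in every light comparison. Y-linked transcripts as a covariate left 0 calls with CLN3 deficiency, against 4 rises and 2 falls in the wild type. That covariate rests on the minocycline arrays alone in both genotypes. Quantile normalization left 2 lower in wild-type retinas. For genotype averaged over light, eBayes with trend and robust, only the groups compared, and the Y-linked covariate each gave 2 members (*Gabra2* and *Grin3a*) in place of 0. There too the covariate cancels and cannot change the log2 values, so this was no test of sex. It only takes the minocycline pair out of the estimate of the spread, as the fit of the groups compared also does.

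Leaving out 1 array gave 2 to 3 higher and 1 to 2 lower members in CLN3-deficient retinas, the fewest without unexposed replicate 1 or vehicle replicate 1. In wild-type retinas it gave 3 to 7 higher and 1 to 6 lower, the fewest without light replicate 1, and 1 lower also without unexposed replicate 2. Light with minocycline gave 1 to 7, with 1 without CLN3-deficient unexposed replicate 1, the array with muscle transcripts, and 3 without replicate 2. The average gave 7 to 12 higher and 3 to 8 lower, and genotype averaged over light 0 to 1 (1 without wild-type unexposed replicate 2). No paired analysis was possible because the labels carry no replicate numbers that pair the groups. The number of arrays limits what can be seen.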
